A study of Homo sapiens with 4 samples.

Results

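Cyclin D genes and the genes of cyclin-dependent kinase (CDK) inhibitors were examined in KM-H2, a cell line established from Hodgkin lymphoma. The set was chosen by gene family, as the 3 cyclin D genes (CCND1, CCND2 and CCND3) and the 7 CDK inhibitor genes (CDKN1A, CDKN1B, CDKN1C, CDKN2A, CDKN2B, CDKN2C and CDKN2D), with every probe set of each. Of these 10 genes 9 had a probe set with a single gene name, out of 19775 genes in all, and they were represented by 22 probe sets. CDKN2C is not analysed here. RNA was measured on 4 Affymetrix arrays, 2 from KM-H2 cells with small interfering RNA (siRNA) knockdown of the phosphatase gene PTPN1 and 2 from non-silencing KM-H2 cells. The arrays of a group are numbered 1 and 2 and are technical replicates according to the series, so SDs, standard errors and p-values describe the spread between arrays, not between cultures. All groups came from a single cell line grown under standard conditions, and the labels give neither the siRNA nor the time after transfection.

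D-type cyclins bind and activate CDK4 and CDK6, which phosphorylate the retinoblastoma protein and so release E2F transcription factors at the G1 to S transition of the cell cycle. The INK4 inhibitors (CDKN2A to CDKN2D) bind CDK4 and CDK6 and keep the cyclin off, whereas the CIP/KIP inhibitors (CDKN1A, CDKN1B and CDKN1C) act on a wider range of cyclin-CDK complexes, among them those of CDK2. Lymphoid cells commonly use cyclin D2 and cyclin D3, and cyclin D1 is usually silent in normal B cells. PTPN1 dephosphorylates JAK kinases, and cyclin D genes and CDKN1A are among the known targets of JAK-STAT signalling.

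CDKN1A and CDKN1B, a pair of CIP/KIP genes, were picked because their values on these arrays looked different, a difference that was not tested. Their RefSeq promoter windows are printed from 250 bases before to 50 bases after the transcript start. Both are written 5′ to 3′ on the plus strand of GRCh38.p14. CDKN1A lies at chr6:36678464-36678763 and CDKN1B at chr12:12717118-12717417. Capitals mark GC boxes (GGGCGG on either strand, where neighbouring matches can overlap).
CDKN1A: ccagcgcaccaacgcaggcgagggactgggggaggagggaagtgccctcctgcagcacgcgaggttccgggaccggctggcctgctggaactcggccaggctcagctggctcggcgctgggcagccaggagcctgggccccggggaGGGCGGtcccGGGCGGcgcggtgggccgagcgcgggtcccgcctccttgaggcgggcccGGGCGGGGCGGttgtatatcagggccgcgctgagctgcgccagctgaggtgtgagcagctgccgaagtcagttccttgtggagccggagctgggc
CDKN1B: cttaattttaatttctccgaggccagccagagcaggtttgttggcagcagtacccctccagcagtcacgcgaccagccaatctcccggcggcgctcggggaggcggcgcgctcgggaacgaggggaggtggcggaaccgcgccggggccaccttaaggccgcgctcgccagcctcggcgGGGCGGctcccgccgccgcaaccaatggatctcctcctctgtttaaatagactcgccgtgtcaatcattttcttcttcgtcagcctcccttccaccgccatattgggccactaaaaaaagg
The CDKN1A window held 4 GC boxes and the CDKN1B window 1, and 45% of all 35116 windows of this length held at least 1. That share does not say how common 4 boxes are. Windows of the other genes of the set held from 0 to 6. Whether the number of boxes goes with the array values was not tested. Neither window held a STAT element (TTCNNNGAA on either strand, present in 7.66% of all windows) or a TATA element (TATAAA on either strand, present in 11.5%). Elements more than 250 bases before the start were not searched, so a gene cannot be said to lack them. Windows were found for 7 of the 10 genes. These are matches of letters, and the arrays do not measure what binds there.

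Values are log2 expression values made by the authors with RMA, so that a difference of 1 is a doubling of signal. Array medians lay between 5.10 and 5.12, the median of all values was 5.11 and the lower quartile 4.09. No detection call was used, so a probe set is described here as bright or dim by its place relative to that median. Brightness also depends on the probes, and values of different probe sets are therefore not compared as amounts of transcript. PTPN1 itself, at its brightest probe set, had 8.28 ± 0.17 (SD, n = 2) in the non-silencing group and 7.18 ± 0.26 in the knockdown group, a log2 difference of -1.10 (SE 0.18) with the groups apart that did not pass limma's adjusted test without a replicate block. The Hodgkin markers TNFRSF8 (CD30), at 8.16 to 9.32, and IRF4, at 10.33 to 11.15, were bright on all 4 arrays. In the Hodgkin and B lineage list 10 of 11 genes had means above the median of all values, among them PAX5 (7.17 to 7.60) and CD79A (above the median on every array), while MS4A1 (CD20) read 4.40 to 5.20. Among markers of other cells, 4 of 8 T lineage, 3 of 6 myeloid, 2 of 7 fibroblast and 2 of 5 epithelial genes had such means. Over all genes 12584 of 19775 did. CD3D (9.8 to 10.4) and COL1A1 (8.63 to 10.01) were bright on every array, while CD3E (4.78 to 4.88) and EPCAM (3.47 to 3.52) were dim. Single markers of these lists therefore do not stand for their list.

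The brightest probe sets of CCND2, CCND3, CDKN1A, CDKN1B, CDKN2A and CDKN2D lay above the median on all 4 arrays. CDKN1C and CDKN2B lay below it on all 4, and CCND1 lay above it on 1 array only. These are 6 of 9 genes, where the background was 60.2% of all genes. Over all their probe sets, 9 of 22 lay above the median on every array and 11 on none, against 46% of all probe sets above it on every array. Probe sets of 1 gene differed widely, so that the gene's place depends on the probe set read.

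**Figure D1:**
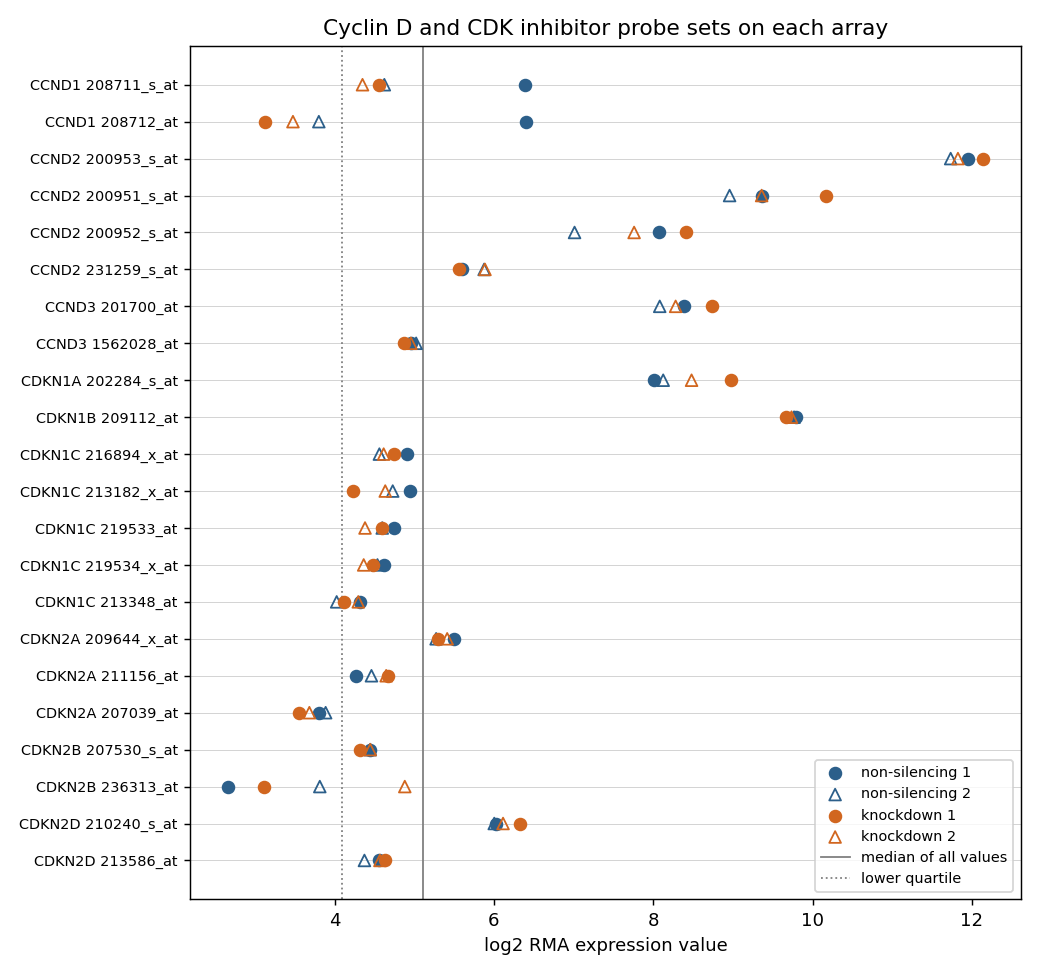
Log2 RMA value (horizontal axis) of each of the 22 probe sets (rows) on each of the 4 arrays, filled circles for arrays numbered 1 and open triangles for arrays numbered 2, with non-silencing in blue and knockdown in orange. Vertical lines mark the median of all values (5.11) and the lower quartile (4.09). The CCND1 points of non-silencing array 1 stand apart from the other arrays, and the CCND2, CCND3, CDKN1A and CDKN1B genes each have a probe set to the right of the median line.

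CCND2, which encodes cyclin D2, was above the median at all 4 of its probe sets on every array. Probe set 200953_s_at read 11.95 and 11.73 on non-silencing arrays 1 and 2 and 12.14 and 11.82 on knockdown arrays 1 and 2, and its mean lay at percentile 98.6 of all probe sets. Probe set 200951_s_at read 9.37 and 8.96 against 10.17 and 9.36, and 200952_s_at read 8.08 and 7.01 against 8.42 and 7.76. In all 3 the knockdown array was above the non-silencing array of the same number, while the groups overlapped. The fourth, 231259_s_at, read 5.59 and 5.88 against 5.57 and 5.89 and showed no such shift.

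The CCND2 differences, knockdown minus non-silencing, were 0.14 (SE 0.17), 0.60 (SE 0.30), 0.54 (SE 0.40) and -0.01 (SE 0.18) on the log2 scale in that order. Within the arrays numbered 1 the first 3 were 0.19, 0.80 and 0.34, and within those numbered 2 they were 0.09, 0.40 and 0.75. The size of the difference thus depends on the probe set, from 1.10-fold at the brightest to 1.52-fold at the next. Without knockdown array 1 the difference of the brightest probe set was -0.015.

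CCND3, which encodes cyclin D3, gave 8.38 and 8.08 on the non-silencing arrays and 8.74 and 8.28 on the knockdown arrays at 201700_at. The knockdown array was higher within both numbers, by 0.36 and 0.20, and the groups overlapped. The mean difference was 0.28 (SE 0.21), and it was 0.05 without knockdown array 1. The other CCND3 probe set, 1562028_at, was dim throughout, at 4.88 to 5.02, and differed by -0.07 (SE 0.13).

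CCND1, which encodes cyclin D1, was above the median on a single array. Probe set 208711_s_at read 6.39 on non-silencing array 1, 4.63 on non-silencing array 2, and 4.56 and 4.35 on the knockdown arrays. Probe set 208712_at read 6.40 on non-silencing array 1 and 3.80, 3.13 and 3.48 on the others in the same order. Both probe sets thus placed non-silencing array 1 at least 1.77 above non-silencing array 2, and the values of the remaining 3 arrays spanned 0.27 and 0.67.

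The CCND1 differences were -1.05 (SE 0.56) and -1.80 (SE 0.81), the lowest of all 22 probe sets. For number 1 they were -1.83 and -3.27, against -0.27 and -0.32 for number 2. The groups did not overlap at either probe set, but without non-silencing array 1 the difference of the brighter was -0.17. Without non-silencing array 2 it was -1.94. What sets non-silencing array 1 apart in CCND1 was not tested.

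CDKN1A, which encodes p21, an inhibitor of CDK2 complexes and a classical p53 target, had the largest difference among the 9 probe sets above the median on all arrays. Its only probe set, 202284_s_at, read 8.01 and 8.13 on the non-silencing arrays and 8.98 and 8.48 on the knockdown arrays. Both knockdown arrays were above both non-silencing arrays, and the higher of them was array 1. The difference was 0.66 (SE 0.20, 95% interval 0.16 to 1.16), a 1.58-fold higher signal, with 0.97 for number 1 and 0.36 for number 2. Its unadjusted p in limma, without a replicate block, was 0.019. That was the only one under 0.05 among the 22 probe sets, where 2.5% of all probe sets were under it. The limma adjusted p over all probe sets was 0.99996. The log2 difference was 0.41 without knockdown array 1 and 0.91 without knockdown array 2.

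CDKN1B, which encodes p27, the inhibitor typical of resting lymphocytes, was bright and nearly constant. Probe set 209112_at read 9.79 and 9.77 on the non-silencing arrays and 9.67 and 9.74 on the knockdown arrays. All 4 values spanned 0.12, with both knockdown arrays just below both non-silencing arrays. The difference was -0.07 (SE 0.13), with a 95% interval from -0.39 to 0.24 that overlaps the CDKN1A interval. The difference between CDKN1A and CDKN1B was itself not tested.

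CDKN1C, which encodes p57 and is an imprinted gene, was dim at all 5 of its probe sets, with values from 4.03 to 4.95 over the 4 arrays. Its differences ranged from -0.41 to 0.03, 4 of the 5 below 0. The lowest came from 213182_x_at, which read 4.95 and 4.73 on the non-silencing arrays and 4.23 and 4.64 on the knockdown arrays. It differed by -0.73 for number 1 and by -0.09 for number 2, and the groups did not overlap. Differences among values this dim are uncertain in size.

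Most probe sets of the INK4 genes were dim, with 5 of 7 below the median on all 4 arrays. CDKN2A, which encodes p16 and, from another first exon and reading frame, the p53 regulator ARF, had 3 probe sets that did not share a pattern. Probe set 209644_x_at read 5.50 and 5.28 against 5.30 and 5.41, just above the median with overlapping groups and a difference of -0.03 (SE 0.15). Probe set 211156_at read 4.27 and 4.46 against 4.67 and 4.65, and 207039_at read 3.81 and 3.89 against 3.55 and 3.68. Those 2 had groups that did not overlap, but in opposite directions, at 0.30 (SE 0.14) and -0.23 (SE 0.13), and neither was above the median on any array. The files do not say which of the 2 CDKN2A products each probe set reads.

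CDKN2B, which encodes p15, read 4.44 and 4.45 on the non-silencing arrays and 4.31 and 4.45 on the knockdown arrays at 207530_s_at. Its other probe set, 236313_at, read 2.67 and 3.82 against 3.11 and 4.88, and was below the lower quartile on 3 arrays. There both arrays numbered 2 lay above both arrays numbered 1, by 1.15 in the non-silencing group and 1.77 in the knockdown group. The knockdown difference of 0.76 (SE 0.66) is smaller than that.

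CDKN2D, which encodes p19, was above the median at 1 of its 2 probe sets. It read 6.02 and 6.01 on the non-silencing arrays and 6.33 and 6.12 on the knockdown arrays at 210240_s_at, with both knockdown arrays higher. The difference was 0.21 (SE 0.14), with 0.31 and 0.11 within the numbers. The dim probe set 213586_at read 4.56 and 4.38 against 4.63 and 4.57 and also differed by 0.13 (SE 0.14), without overlap of the groups.

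**Figure D2:**
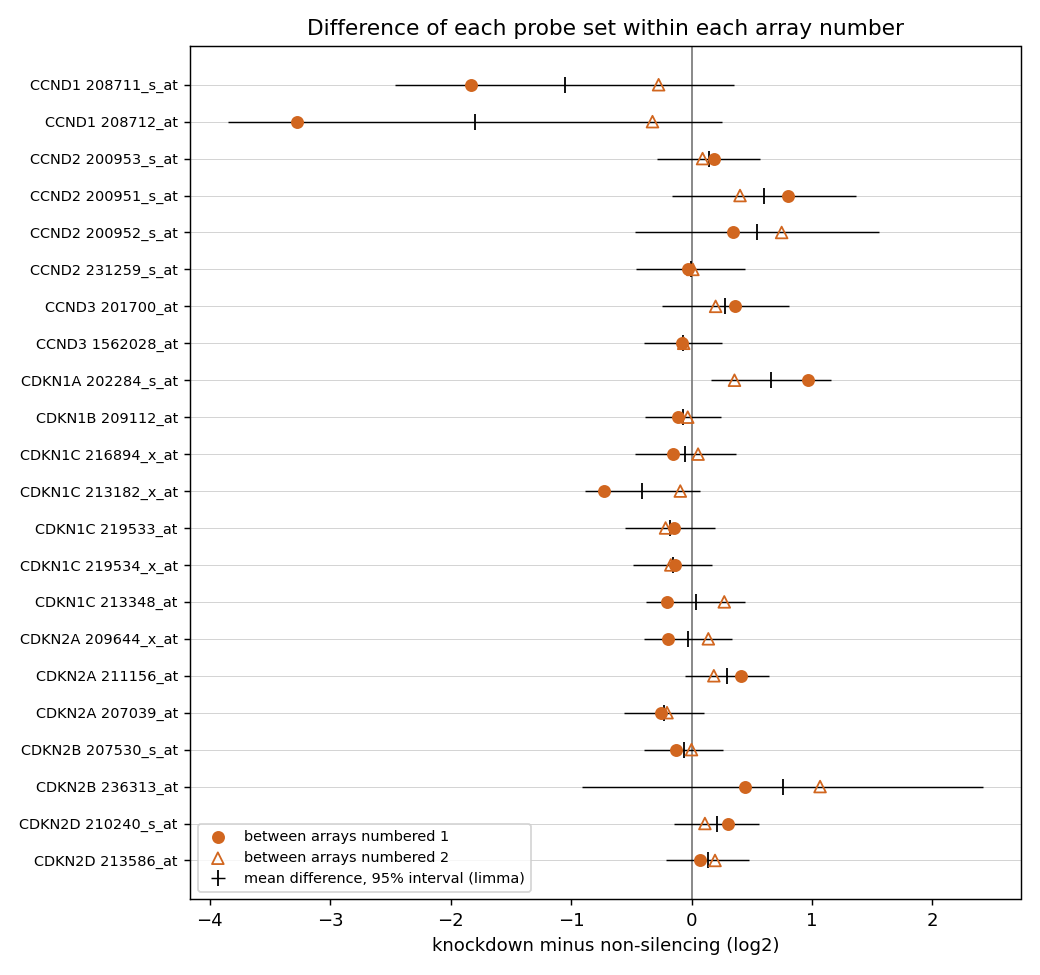
Knockdown minus non-silencing difference on the log2 scale (horizontal axis) of each of the 22 probe sets (rows), as the difference between arrays numbered 1 (filled circles), between arrays numbered 2 (open triangles) and as the mean with its 95% interval from limma (bars). In this fit, which has no replicate block, the CDKN1A interval, 0.16 to 1.16, is the only one that does not cross 0. The CCND1 circles lie at -1.83 and -3.27 while the triangles lie at -0.27 and -0.32.

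Across the set, none of the 9 genes passed limma's test at an adjusted p under 0.05, where 0% of the 19775 genes and 0% of the 54675 probe sets did. Without adjustment 509 genes and 1369 probe sets had a limma p under 0.05. With 2 arrays a group an exact permutation of the arrays cannot give a p below 0.333. RNA from a whole culture cannot tell a smaller share of cells expressing a gene from less RNA per cell.

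At their brightest probe sets 2 of the 9 genes had both knockdown arrays above both non-silencing arrays (CDKN1A and CDKN2D), where 12.4% of all genes did. Another 2 had both below (CCND1 and CDKN1B), where 15% did. The median difference of the 9 genes was -0.03, against -0.01 over all genes. Over the 22 probe sets, 4 were apart with knockdown higher (background 13.4%) and 6 with knockdown lower (15.3%). The difference was above 0 at 10 of the 22 (background 48.7%). Within both array numbers 9 were higher in knockdown (background 27.7%), 9 lower (28.5%) and 4 changed sign.

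Array number moved with several of these values. Of the 22 probe sets 10 read lower on array 2 than on array 1 in both groups (background 35.3%) and 5 read higher in both (29.2%). Among the 10 were the 3 brightest CCND2 probe sets and 201700_at of CCND3, all 4 of which were also higher in knockdown. For 200952_s_at of CCND2 number 2 minus number 1 was -1.06 in the non-silencing group and -0.66 in the knockdown group, against a knockdown difference of 0.54. At 12 of the 22 probe sets the mean difference between numbers was larger than the difference between groups (background 60.4%), 6 of them among the 8 cyclin D probe sets. Beta-actin control probe sets, whose 3′ minus 5′ signal follows RNA integrity and amplification, gave 1.31 and 1.33 for number 1 and 0.972 and 0.969 for number 2. Its part in these values was not tested.

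**Figure D3:**
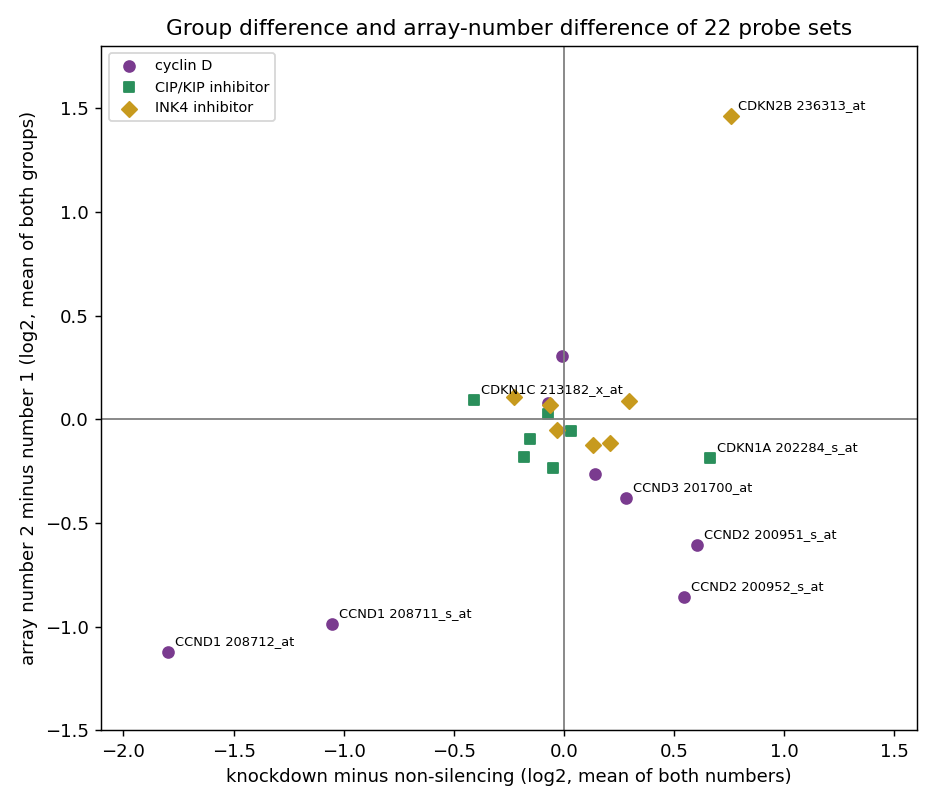
Difference between knockdown and non-silencing (horizontal axis, log2, mean of both array numbers) against the difference between array number 2 and number 1 (vertical axis, log2, mean of both groups) for the 22 probe sets, in colours for cyclin D, CIP/KIP and INK4 genes. CDKN1A lies to the right and somewhat below 0 on the vertical axis, and the cyclin D points that lie far from 0 on the horizontal axis also lie below 0 on the vertical axis.

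The kinases and pocket proteins that act with these genes differed little. Of 12 measured genes for G1 kinases, cyclin E and the RB family 4 were above 0 and 8 below, with a median difference of -0.05, where 48.2% of all genes were above 0. The cyclin D partners CDK4 (-0.06, SE 0.16) and CDK6 (-0.07, SE 0.14), the later kinase CDK2 (-0.06, SE 0.16) and the retinoblastoma gene RB1 (-0.01, SE 0.25) all had overlapping groups. CCNE1, which encodes cyclin E1, differed by 0.14 (SE 0.26). The groups were apart and higher in 1 gene (background 12.4%), CDK7 (0.22), the kinase that activates other CDKs. They were apart and lower in 1 (background 15%), RBL1 (-0.20), a relative of RB1. All 12 genes were above the median of all values.

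Among 10 E2F factor genes 4 were above 0 and the median was -0.04. E2F1 differed by -0.06 (SE 0.13) with overlapping groups, while E2F7, a repressor of E2F targets, read 9.30 and 9.38 against 9.65 and 9.91, a difference of 0.44 (SE 0.15). Genes driven by E2F and of S phase had 4 of 29 measured members above 0 and 25 below, where 51.8% of all genes were below. Their median was -0.09, with 5 genes apart and lower (background 15%) and 0 apart and higher (background 12.4%). The replicative helicase gene MCM6 read 11.87 and 11.87 against 11.41 and 11.67, and GINS1, of the same helicase complex, differed by -0.29 (SE 0.17). For number 1 this median was -0.14 and for number 2 it was 0.01, and without non-silencing array 1 it was 0.025.

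Genes of G2 and mitosis had 12 of 25 above 0 and a median of -0.01, with 5 apart and lower (background 15%) and 1 apart and higher (background 12.4%). The centrosome kinase gene NEK2 differed by -0.20 (SE 0.13) and the spindle gene NUSAP1 by -0.19 (SE 0.13). No gene of any of the 6 lists passed limma's test at an adjusted p under 0.05.

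Among 27 measured regulators of transcription of cyclin D and CDK inhibitor genes 14 were above 0, with a median of 0.04. The groups were apart with knockdown higher in 7 (background 12.4%) and lower in 2 (background 15%). BCL6, a zinc finger repressor known to act on CDKN1A and CCND2, read 8.22 and 8.05 against 8.96 and 8.73. STAT3 read 8.16 and 8.28 against 9.66 and 8.47, a difference of 0.85 (SE 0.39) with by far the highest value on knockdown array 1. MYC, which promotes CCND2 and opposes CDKN1A, differed by 0.38 (SE 0.48) with overlapping groups and was lower on both arrays numbered 2.

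Among 18 measured genes for the turnover of the cyclin D and inhibitor proteins 10 were above 0, with a median of 0.01. SKP2, the ubiquitin ligase subunit that marks p27 for destruction, read 11.35 and 11.18 against 11.24 and 11.20 (-0.05, SE 0.13). FBXO31, an adaptor for cyclin D1 degradation, differed by 0.28 (SE 0.16) and MDM2, the ligase of p53, by 0.27 (SE 0.17), both with the groups apart. Of these 18 genes 3 were apart and higher (background 12.4%) and 1 apart and lower (background 15%).

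**Figure D4:**
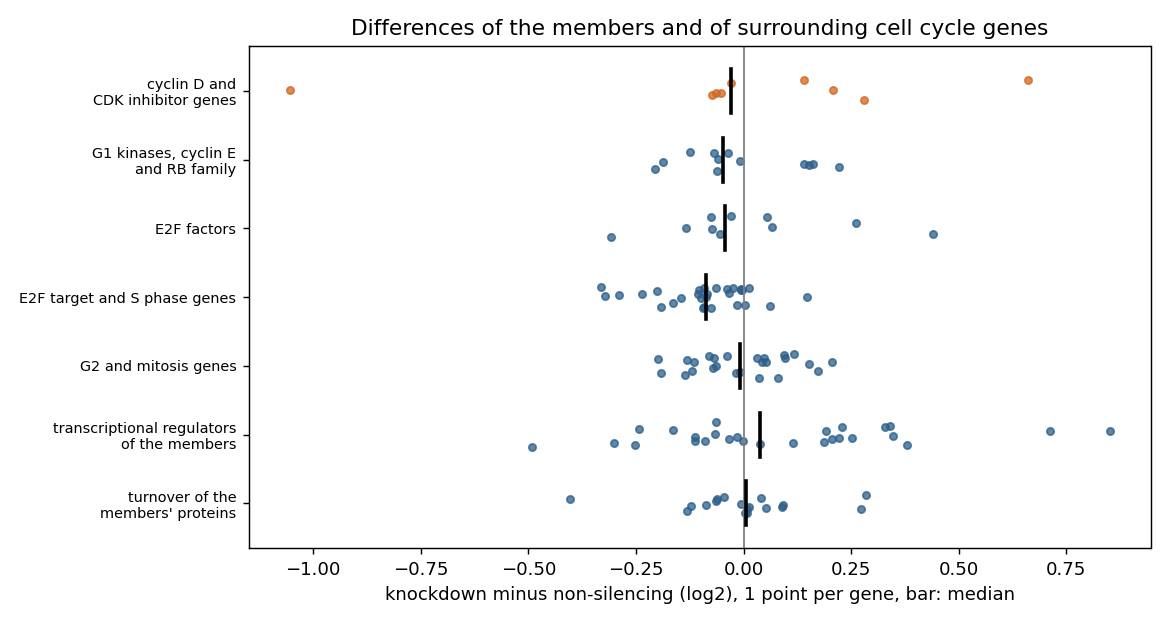
Knockdown minus non-silencing difference on the log2 scale (horizontal axis) of each gene at its brightest probe set, 1 point per gene, for the 9 measured cyclin D and CDK inhibitor genes (orange) and 6 lists of cell cycle genes (blue), with vertical bars at the medians. CCND1 at -1.05 and CDKN1A at 0.66 stand at the ends of their row, and the median of the E2F target and S phase genes lies at -0.09.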

How the data were processed

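The deposited log2 values came from RMA run by the authors, as the submitters' processing notes record, which subtracts background, equalizes array distributions and combines the probes of a probe set. No source used here names its software. Per the labels' protocols, cRNA went through 2 cycles of amplification, which can favour 3′ ends. Because distributions were equalized, a change in RNA content of the whole cell would not show, and small values are compressed. The values were used without further normalization. Gene names came from the platform annotation, matched by gene identifier to RefSeq genes of GRCh38.p14, and 41097 of 54675 probe sets had 1 symbol. The brightest probe set, by its mean over the 4 arrays, stood for each gene.

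Differences were fitted in limma 3.58.1 (R 4.3.3, lmFit and eBayes, two-sided, no covariates), over 54675 probe sets and, for gene counts and lists, over 19775 genes, with Benjamini-Hochberg adjustment and a threshold of 0.05. SEs of the 22 probe sets come from the first fit. The method was tested on simulated data. Array titles gave groups and numbers. The number of arrays, 2 a group, limits the precision. The genes and lists were chosen with earlier results of these data known. Named list genes are 10 fixed ones, 9 of them measured, plus the 2 of each list with the largest difference among those with groups apart. Alternatives were other normalizations, choices of probe set, a filter on dim genes, other variance models, a replicate block and leaving out each array. Counts of probe sets above 0 under these settings were added after seeing the data. Promoter windows are from RefSeq tables of GRCh38.p14.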

Additional observations from a re-analysis of the deposited data

How the results depend on the processing

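The 9 genes gave 0 calls in limma under every setting run, including the fit over all probe sets. Over all genes the count moved from 0 to 1 with a variance trend and to 72 with the replicate block, and over all probe sets to 164 with the block. Without 1 array it ranged from 0 to 1 for genes and from 0 to 1 for probe sets. The labels tie an array number to no shared preparation. Deviations from group means correlated between same-numbered arrays (Pearson's r 0.648 across genes, which are not independent replicates), and with 2 pairs this cannot settle the pairing. With the replicate block the limma adjusted p for CDKN1A was 0.280 over all genes and 0.269 over all probe sets. Over all probe sets it was lower for 200951_s_at of CCND2 (0.225) and for the dim 236313_at of CDKN2B (0.192). The brightest PTPN1 probe set passed (0.0154 over all probe sets).

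Of 51 member differences recomputed under other settings 4 changed sign, all under other choices of probe set. The replicate block and the filter on dim genes cannot move a difference. Nor can the choice of probe set for CDKN1A and CDKN1B, which have a single one each. With the mean of all probe sets CDKN2A was 0.013 and CDKN2B 0.35, and with the most variable probe set they were 0.30 and 0.76. Of 36 recomputed without 1 array 6 changed sign, with ranges of -0.015 to 0.30 for CCND2, -0.22 to 0.12 for CDKN1C, -0.14 to 0.082 for CDKN2A and -0.13 to 0.0027 for CDKN2B. CCND1, CCND3, CDKN1A, CDKN1B and CDKN2D kept their direction in every fit. For CCND1, CDKN1A, CDKN1B and CDKN2D the groups were apart, so leaving out 1 array could not turn the sign.

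List medians moved by more than 1 SD of the list's medians for numbers 1 and 2 when all probe sets of a gene were averaged (G1 kinases 0.030, E2F factors 0.045, transcriptional regulators 0.085, turnover 0.051) and with the most variable probe set (0.066, -0.0057 and 0.19 for the first 3). Without 1 array they ranged from -0.042 to 0.039 for G1 kinases, -0.040 to 0.0030 for E2F factors, -0.16 to 0.025 for E2F targets, -0.12 to 0.12 for mitosis, -0.016 to 0.15 for regulators and -0.12 to 0.096 for turnover. The cause was not tested. Of 22 probe sets 10 were above 0, and from 9 to 12 without 1 array. Dim probe sets limit what can be read from CCND1, CDKN1C, CDKN2A and CDKN2B.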

Other observations

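MTAP, a methionine salvage enzyme gene, lies next to CDKN2A in the RefSeq gene order, with CDKN2B on the other side and DMRTA1 beyond it. These neighbours were looked at after the CDKN2A and CDKN2B values were seen. All 6 MTAP probe sets were below the median of all values on each of the 4 arrays. Over all 54675 probe sets, 25082 were above it on none. The highest MTAP value was 4.98, on non-silencing array 2 at 211364_at. The MTAP means lay between percentile 5.40 and percentile 43.0 of all probe sets. The single DMRTA1 probe set, 244725_at, read 4.70 and 4.56 on the non-silencing arrays and 4.67 and 4.51 on the knockdown arrays.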
